A study of Mus musculus with 6 samples.

Results

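Genes that the transcription factor Sox6 is known to regulate in cartilage were examined in skeletal myotubes. They were Col2a1, Acan, Matn1, Hapln1, Col9a1, Col9a2, Col10a1 and Col11a2, chosen by name as cartilage genes under Sox5, Sox6 and Sox9, and they are 8 of the 23030 genes that could be placed on the genome. Chromatin immunoprecipitation followed by sequencing (ChIP-seq) was carried out on primary myotubes of mouse strain C57BL/6. Wild type myoblasts from limb muscle of E18.5 fetuses, with 17 given as the number of passages, were kept in differentiation medium for 48 h. The series has 3 groups of 2 libraries each, all from this one kind of culture: chromatin precipitated with an antibody to Sox6, chromatin precipitated with an antibody to a phosphorylated form of RNA polymerase II (Pol II), and unprecipitated input DNA. There is no Sox6 mutant, no second cell type and no chondrocyte sample among them, so every comparison is between a precipitate and input or between genes. The ChIP experiments are described as independent, but nothing says whether the cultures came from different fetuses, and the p-values below measure the spread between these libraries.

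Sox6 and its relative Sox5 have an HMG box that bends DNA and no activation domain of their own. In chondrocytes they act with Sox9, and the trio switches on the genes for the cartilage matrix by binding pairs of short Sox motifs in enhancers. In muscle Sox6 is known instead as a factor that holds down slow-fiber genes. The members cover the main parts of the cartilage matrix. Col2a1 encodes the chain of type II collagen, the main fibril of cartilage, Col11a2 a chain of type XI collagen that runs within those fibrils, and Col9a1 and Col9a2 are chains of type IX collagen on their surface. Acan encodes aggrecan, the large proteoglycan that holds water, Hapln1 the link protein that ties aggrecan to hyaluronan, Matn1 the adaptor protein matrilin 1, and Col10a1 the type X collagen of hypertrophic cartilage.

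The genes are spread over 7 chromosomes, and positions are those of NCBI Build 37 with GENCODE M1 models. Col2a1 (ENSMUSG00000022483.9, 52 exons) lies on the minus strand at chr15:97806034-97835155, and the 7 others lie on the plus strand. Acan (ENSMUSG00000030607.6, 17 exons) is at chr7:86198369-86259985 and Matn1 (ENSMUSG00000040533.7, 8 exons) at chr4:130500300-130511390. Hapln1 (ENSMUSG00000021613.8, 5 exons) is at chr13:89680241-89751437. Col9a1 (ENSMUSG00000026147.9, 38 exons) is at chr1:24184449-24259523 and Col9a2 (ENSMUSG00000028626.5, 32 exons) at chr4:120711990-120727927. Col10a1 (ENSMUSG00000039462.4, 3 exons) is at chr10:34109787-34116891 and Col11a2 (ENSMUSG00000024330.9, 64 exons) at chr17:34176382-34203630. Their lengths run from 7.11 kb (Col10a1) to 75.1 kb (Col9a1), so all levels between genes are given per kb.

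The 6 libraries held between 1468604 and 2985437 mapped reads for the ChIP samples and 21973495 and 24249850 for the input samples, so input was read far more deeply than ChIP and counts of a few ChIP reads limit most values. The myotube label was checked with 15 genes of differentiating muscle, among them Myog, Myh3 and Acta1. All 15 overlapped a deposited Pol II peak in both replicates. Of 15 genes known from fibroblasts, the cells most likely to be carried along in such cultures, 1 (Sparc) overlapped a Pol II peak in each replicate. Of all genes, 12.6% and 17.7% overlapped one, so this count says little of fibroblasts in the culture. Levels of these lists are given with the other lists.

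The first question was whether Sox6 occupies these genes in myotubes as it does in cartilage. Peaks had been called by the study in each Sox6 library against its input, and a common list holds the 1066 places found in both. A peak was counted as near a gene when its centre lay inside the gene or within 50 kb of either end. None of the 8 genes had a common Sox6 peak within 50 kb, where 7.07% of all genes had one. The replicate 2 list gave none either, against 10.9% of all genes. The replicate 1 list, from the deeper library, placed a peak near Col10a1 and near Col11a2, 2 of 8 genes against 15.4% of all genes. Most genes had no common peak either, so its absence here says little of the 8 in particular.

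**Figure D1:**
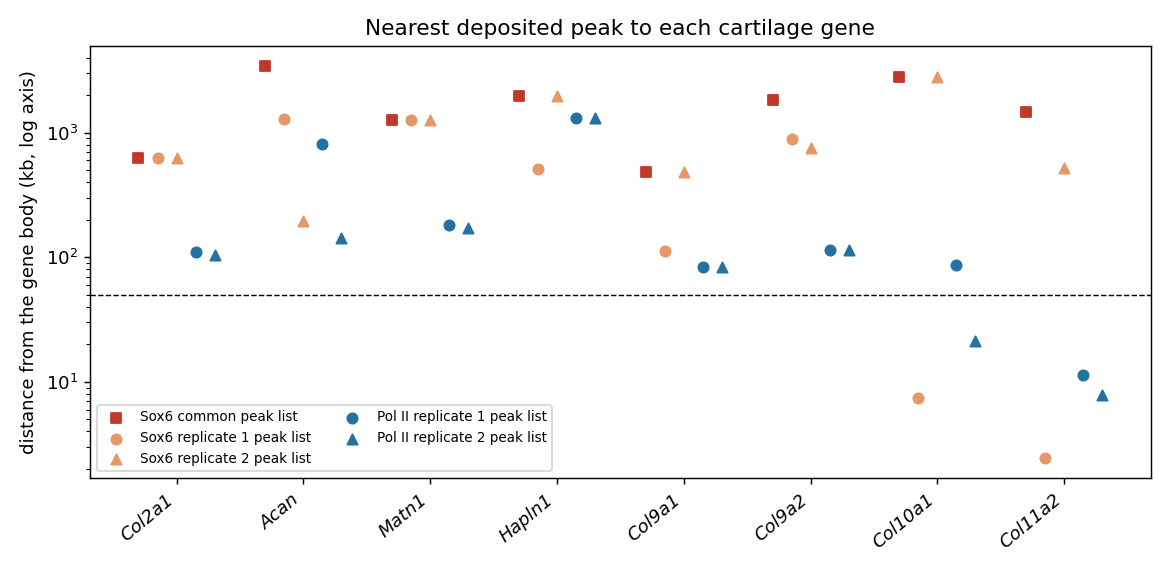
Distance in kb (log axis) from each of the 8 genes to the nearest peak of each deposited list. Squares are common Sox6 peaks, orange symbols the Sox6 lists of single replicates and blue symbols the Pol II lists, with circles for replicate 1 and triangles for replicate 2. The dashed line marks 50 kb, and only Col10a1 and Col11a2 have symbols under it.

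The nearest common peak lay far from every member. It was 482 kb from Col9a1 and 621 kb from Col2a1, the closest of them. It was 1259 kb from Matn1, 1477 kb from Col11a2, 1841 kb from Col9a2, 1971 kb from Hapln1, 2823 kb from Col10a1 and 3458 kb from Acan. Widening the limit to 100 kb added no gene.

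The sequences under the 2 peaks of replicate 1 are shown because they are the places where these cartilage loci came closest to a called Sox6 site. They are 200 bases around each peak centre, on the plus strand of NCBI Build 37. Capitals mark the Sox consensus, searched as ACAAAG or ACAATG on both strands. The former is also the core of the TCF/LEF motif, so a match is not particular to Sox factors. The first, chr10:34102211-34102410, lies 7.48 kb upstream of the Col10a1 start. Its peak, at chr10:34102272-34102351, is inside intron 6 of Nt5dc1, a gene on the opposite strand whose body contains the whole of Col10a1. The second, chr17:34205961-34206160, is intergenic. Its peak, at chr17:34206032-34206091, lies 2.43 kb beyond the end of Col11a2 and 29.7 kb from its start, and the next gene on the other side, H2-Oa, starts 23.2 kb away.
Col10a1 upstream peak: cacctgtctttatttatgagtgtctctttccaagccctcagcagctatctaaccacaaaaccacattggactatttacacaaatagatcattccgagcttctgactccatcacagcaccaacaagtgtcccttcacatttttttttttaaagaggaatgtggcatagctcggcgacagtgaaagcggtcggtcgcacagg
Col11a2 downstream peak: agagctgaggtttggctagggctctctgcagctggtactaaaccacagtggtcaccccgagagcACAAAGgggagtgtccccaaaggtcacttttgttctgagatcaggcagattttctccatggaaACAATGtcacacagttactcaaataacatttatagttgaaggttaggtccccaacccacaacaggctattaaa
The Col10a1 window held no match in these 200 bases and 1 in 450 bases. The Col11a2 window held 2 matches, both of them in the 200 bases shown. Of all common peaks, 73.8% had at least 1 match in windows of 450 bases.

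At the Col11a2 peak Sox6 replicate 1 had 11 reads in 450 bp and replicate 2 had 6, while input had 8 and 9 reads at several times the depth. In RPM, reads scaled to the total of each library, relative to the input of the same number, the ratio was 10.1 (exact 95% interval 3.71 to 29.0) in replicate 1 and 11 (3.22 to 34.6) in replicate 2. Both Sox6 libraries were high at this place, although the study's caller listed it in replicate 1 alone. All 11 and all 6 reads lay at different positions. In replicate 1, 5 reads on the plus strand and 6 on the minus strand had their median ends at -132 bp and 44 bp from the centre, whereas replicate 2 had 1 plus-strand read and 5 on the minus strand. Pol II had 4 and 1 reads there.

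At the Col10a1 peak Sox6 had 12 and 3 reads, and input had 14 and 16. The ratio to input was 6.31 (exact 95% interval 2.67 to 14.7) in replicate 1 and 3.10 (0.578 to 10.8) in replicate 2. The interval of replicate 2 includes 1, so a difference from input was not detectable there in the second library. As the scale of a called site, the median common peak had 15 and 10 Sox6 reads in the 2 libraries and 11 and 13 input reads, and the median of 1821 replicate 1 peaks outside the common list had 10 and 3. The lower quartile of common peaks was 11 and 8 reads. The Col11a2 place reached that quartile in replicate 1 and stayed below it in replicate 2, and the Col10a1 place did the same with fewer reads in replicate 2. Because the peaks were called on these reads, the replicate 1 values are descriptions, and these intervals cover counting error only.

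The whole loci were then read in windows of 500 bp from 50 kb before to 50 kb after each start, 1600 windows in all. No Sox6 read fell in either library in 710 of them, 44.4%. Regions of 10 kb without peaks had a median of 11.3 and 5.32 Sox6 reads in the 2 libraries. Empty windows of 500 bp are therefore common at this depth and not particular to these loci. The windows were ordered by the lower RPM of the 2 Sox6 libraries. The highest was the Col11a2 window at 29.75 kb, with 14 and 9 reads, or 4.69 and 6.13 RPM, against 0.319 and 0.371 RPM in input. Its lower value equals the median of the common peaks, 4.69 RPM, but those were measured in 450 bp and this window was picked as the highest. In 450 bp around the peak centre the place had 3.68 and 4.09 RPM, and the lower of these is below that median. The 500 bp window was the only one above the lowest 5% of common peaks, 2.34 RPM. The Col10a1 window at -7.75 kb followed with 11 and 3 reads. Next came a Col9a2 window at -36.75 kb with 4 and 4 reads and a Col9a1 window at -7.75 kb with 3 and 4. The highest windows of Col2a1 and Acan had 4 and 1 reads, and those of Matn1 and Hapln1 had 2 and 1.

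**Figure D2:**
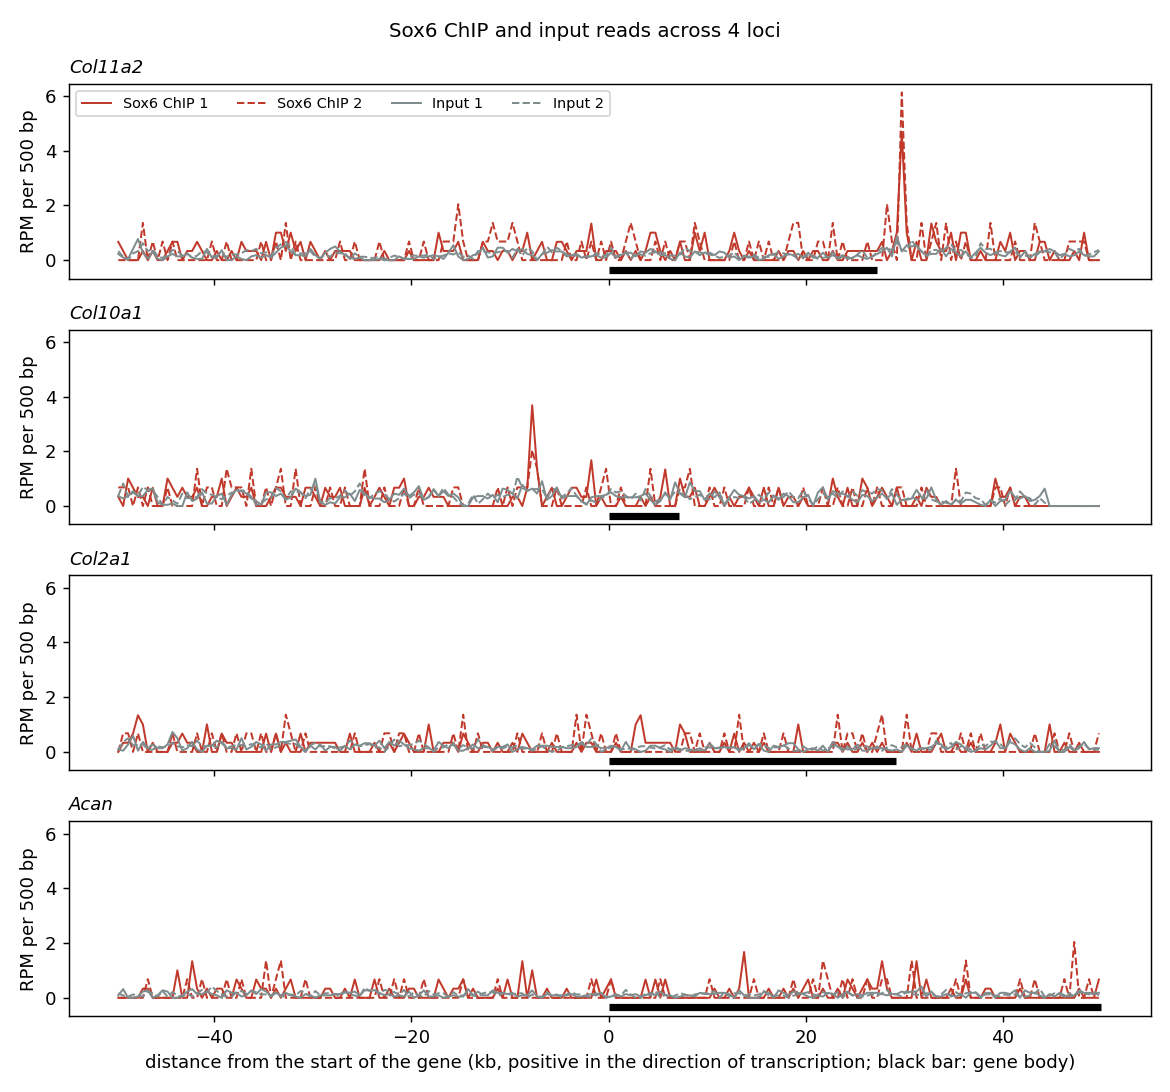
Sox6 ChIP (red) and input (grey) reads per 500 bp, in RPM, against the distance from the gene start in kb, for 4 of the 8 loci, with replicate 1 solid, replicate 2 dashed and the gene body as a black bar. Both Sox6 libraries rise together at 29.75 kb in the Col11a2 locus, to 4.69 and 6.13 RPM, while the Col2a1 and Acan loci hold only single windows of few reads.

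The window plot also shows where a site could not have been seen. From 44.5 to 50 kb beyond the Col10a1 start, 11 windows had no input read in either library. The other loci had at most 2 windows without input reads. Summed over 100 kb, the Sox6 RPM relative to the input of the same number was highest at Col11a2, 1.52 and 1.41, and lowest at Hapln1 in replicate 1 and Col10a1 in replicate 2, 0.674 and 0.730. Both Sox6 libraries were above input at Col2a1, Acan, Matn1 and Col11a2, and both were below it at Hapln1, Col9a1 and Col10a1. Regions of 10 kb without peaks had 0.914 and 0.875 times the RPM of input in the Sox6 libraries. Col9a1, with 0.933 and 0.882, was near that level, as was Col10a1 in replicate 1 (0.895). The share of all loci on either side of input was not counted.

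The Col2a1 enhancer bound by the Sox trio lies in the first intron of the gene. That intron, 3802 bp long, had 9 Sox6 reads in replicate 1 and 1 in replicate 2, or 0.793 and 0.179 RPKM (RPM per kb of length), with 23 and 31 reads (0.275 and 0.336 RPKM) in input. The 2 Sox6 libraries lay on opposite sides of input, so the replicates did not settle a direction. Acan is driven by an enhancer far upstream. None of its 500 bp windows had more than 5 Sox6 reads in replicate 1 or 3 in replicate 2. The first intron of Acan, 28579 bp long, had 37 and 14 Sox6 reads, or 0.434 and 0.334 RPKM, against 0.234 and 0.237 RPKM in input. Both Sox6 values were above both input values there, but the share of all first introns that separate in this way was not counted.

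The start sites were compared by counting reads within 500 bp on each side of each start. Col2a1, Hapln1, Col9a1 and Col9a2 had no Sox6 read in either replicate. Acan had 3 and 1, Matn1 2 and 1, Col10a1 0 and 2, and Col11a2 2 and 1. Input had 9 and 6 reads at Col2a1, 1 and 2 at Acan, 6 and 10 at Matn1, 13 and 11 at Hapln1, 7 and 14 at Col9a1, 7 and 8 at Col9a2, 20 and 24 at Col10a1 and 8 and 15 at Col11a2. A count of 0 still allows 3 reads. For the deeper Sox6 library that is 1.0 RPM, and for the shallower one it is 2.04. The highest input level at a member, Col10a1 with 0.910 and 0.990 RPM, is below these limits, so a Sox6 level below input at a start was not detectable at this depth.

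None of the 7 members that could be tested was called at its start in Sox6 ChIP against input (limma with Benjamini-Hochberg adjustment over 18838 genes). Of all genes tested, 2.21% were called higher and 0.0% lower, and at an unadjusted p under 0.05 the counts were 2925 higher and 33 lower. Acan, with 7 reads in all 4 libraries, was left out for having fewer than 10. Its start was thinly covered in input too, with 1 and 2 reads where the median gene had 8 and 10. The members with reads in both Sox6 libraries had log2 ratios of 1.37 (SE 0.90, adjusted p = 0.487) for Matn1 and 0.90 (SE 0.82, adjusted p = 0.662) for Col11a2. The other members tested had negative ratios, from -0.51 (SE 0.98) at Col2a1 to -1.18 (SE 1.03) at Hapln1. The errors are about as large as the ratios or larger, and 0.5 reads added to each count weigh more in the shallow ChIP libraries than in input. The median log2 ratio of all genes was 0.63, and 0.05 when the addition was made equal in RPM, where no gene was called. The medians of the members tested were -0.53 and -0.96. With the equal addition, 4 members were lower at an unadjusted p under 0.05 (Col2a1, Hapln1, Col9a1 and Col9a2). Of all 18838 genes, 2014 were lower and 1077 higher in that way. These 4 starts had no Sox6 read. In comparison, 4 of 15 myotube genes were called higher, namely Myh8 at 2.41 (SE 0.49, adjusted p = 0.000347), Myod1 at 2.24 (SE 0.53, adjusted p = 0.0038), Actc1 at 2.23 (SE 0.52, adjusted p = 0.00372) and Tnnt2 at 1.98 (SE 0.55, adjusted p = 0.0244). Actc1 and Tnnt2 had a common Sox6 peak within 50 kb. Myh8 had one in the replicate 1 list alone, and Myod1 had none in any list. The study reports no Sox6 peak for Myh8.

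The start windows also differed in sequence. Of the 8 starts, 3 had a Sox consensus match in the window, with 2 matches at Col10a1, 1 at Hapln1 and 1 at Col9a1, whereas 61.4% of all genes had at least 1. Their GC content ran from 37.4% at Col10a1 to 64.7% at Col2a1, around a median of 55.0% for all genes. In the RefSeq promoter sequences of GRCm38.p6, 250 bases before to 50 after a start, 7 of the 8 genes were found with 8 promoters, and 1 of these, that of Col10a1, held a match, while 28.6% of all promoters of that length did. The promoter of Col10a1 is shown for its match, in capitals, and that of Col11a2 because its start was the one member start called in Pol II ChIP.
Col10a1 promoter, chr10:34389731-34390030, plus strand: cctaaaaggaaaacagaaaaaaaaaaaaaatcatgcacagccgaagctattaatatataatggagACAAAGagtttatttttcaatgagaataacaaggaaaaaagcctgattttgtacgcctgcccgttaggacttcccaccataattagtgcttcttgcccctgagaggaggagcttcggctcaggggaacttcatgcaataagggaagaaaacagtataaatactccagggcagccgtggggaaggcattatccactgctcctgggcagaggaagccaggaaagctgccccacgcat
Col11a2 promoter, chr17:34038888-34039187, plus strand: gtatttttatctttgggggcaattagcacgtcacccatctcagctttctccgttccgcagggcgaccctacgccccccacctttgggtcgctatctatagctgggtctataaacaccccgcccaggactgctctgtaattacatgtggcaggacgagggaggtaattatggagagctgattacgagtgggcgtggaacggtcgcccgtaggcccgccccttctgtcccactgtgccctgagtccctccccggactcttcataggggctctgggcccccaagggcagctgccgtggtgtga
The Col2a1 promoter is not shown.

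Over the gene bodies, where counts were larger, no member was called in Sox6 ChIP against input. Of all 20981 genes tested, 5.36% were called higher and 1.63% lower. With all libraries, Col11a2 had the highest Sox6 level relative to input among the members. Without Sox6 replicate 2 its log2 ratio was 0.51, below Matn1 (0.66) and Col2a1 (0.52). The Col11a2 body had 0.504 and 0.675 RPKM in Sox6 against 0.339 and 0.378 RPKM in input, with no overlap between the pairs. Its log2 ratio was 0.72 (SE 0.21, adjusted p = 0.0704), short of the threshold. It passed when libraries were scaled to regions without peaks in place of total reads (0.88, SE 0.23, adjusted p = 0.0449), where 11.5% of all genes were higher. It also passed without the filter on low counts (adjusted p = 0.0476), where 2307 of 23030 genes were higher. With the replicate number as a block it passed too (0.72, SE 0.23, adjusted p = 0.0136), where 2914 of 20981 genes were higher. It did not pass by limma with the addition equal in RPM (adjusted p = 0.122), where no gene was called. It fell short with repeated positions counted once (adjusted p = 0.0569) and reads moved by 75 bp (adjusted p = 0.0724). The same held with bases near other genes (adjusted p = 0.0695) or the first kb (adjusted p = 0.0767) left out. It did not pass either when input replicate 1 or 2 was left out (log2 ratios of 0.64 and 0.80). The spread then comes from the Sox6 libraries alone.

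Col2a1, Acan and Col9a2 also had both Sox6 values above both input values. Col2a1 had 0.403 and 0.397 RPKM in Sox6 against 0.277 and 0.293 in input, a log2 ratio of 0.52 (SE 0.21, adjusted p = 0.145). Acan had 0.321 and 0.376 RPKM against 0.259 and 0.248, a ratio of 0.47 (SE 0.17, adjusted p = 0.11). Col9a2 had 0.504 and 0.513 RPKM against 0.351 and 0.409, a ratio of 0.46 (SE 0.25, adjusted p = 0.259). None of these 3 differences exceeded the threshold. They stood at percentiles 72.4, 69.4 and 69.0 of all genes tested, whose median was 0.20. The share of all genes whose values separate in this way was not counted, here or for the other members.

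Col10a1 lay at the other end, with 0.471 and 0.288 RPKM in Sox6 against 0.717 and 0.813 in input, a log2 ratio of -0.91 (SE 0.35, adjusted p = 0.133). Hapln1 had 0.282 and 0.287 RPKM against 0.384 and 0.341, a ratio of -0.33 (SE 0.15, adjusted p = 0.183). Their Sox6 and input values did not overlap either, yet neither was called. In Col9a1 the values were 0.464 and 0.354 RPKM against 0.499 and 0.428, and in Matn1 0.483 and 0.184 against 0.320 and 0.305, so the groups overlapped, with log2 ratios of -0.18 (SE 0.16) and 0.06 (SE 0.44). The 3 genes with the lowest ratios, Col10a1, Hapln1 and Col9a1, are also the 3 with the lowest GC content at the start, 37.4%, 46.9% and 46.9%, against 56.6% to 64.7% at the others. The part of base composition in these ratios was not tested. Without Sox6 replicate 1 the test called 4 members higher and 3 lower, and over all 20885 genes 7549 higher and 2885 lower. Without Sox6 replicate 2 it called 4 members higher and 2 lower, and over all 20925 genes 4590 higher and 1981 lower. In those fits the spread comes from the input libraries alone, and no call was taken from them.

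**Figure D3:**
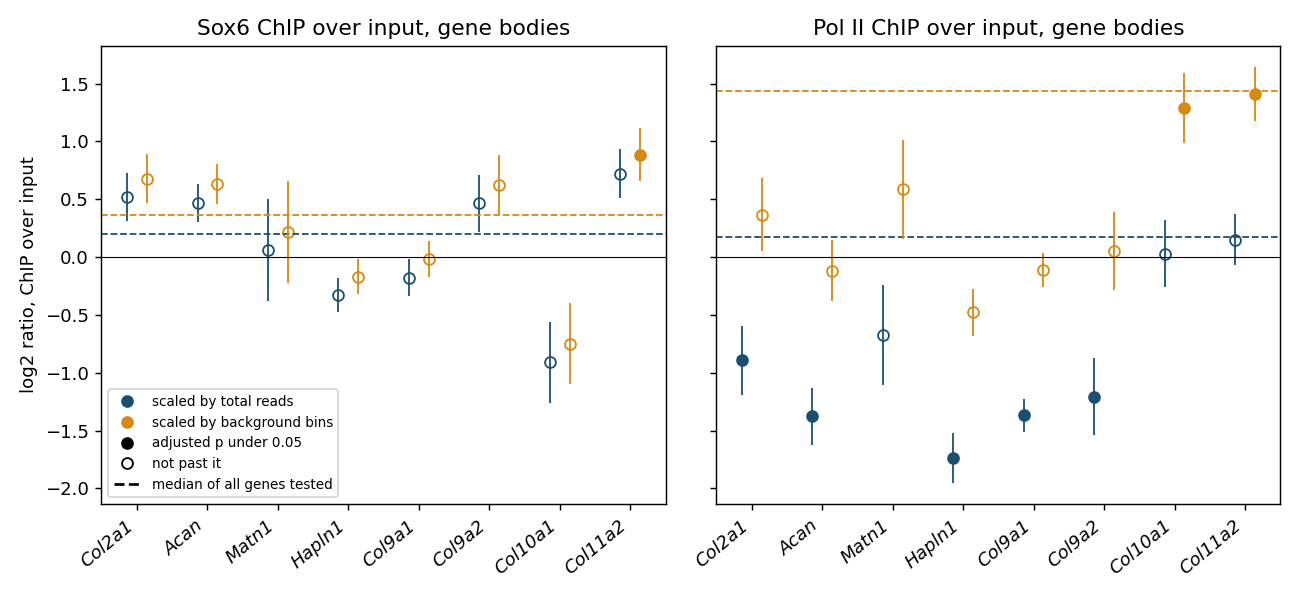
Log2 ratio of Sox6 ChIP (left) and Pol II ChIP (right) over input for the gene bodies of the 8 cartilage genes, with bars for the standard error (2 libraries a group). Blue values were scaled by total reads and orange ones by regions without peaks, filled symbols passed an adjusted p of 0.05, and dashed lines give the median of all genes tested. The 5 filled blue Pol II symbols below 0 lose their call in orange.

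The second question was whether the genes carry polymerase in myotubes. No member overlapped a Pol II peak in replicate 1 or in replicate 2, where 12.6% and 17.7% of all genes did. None had a Pol II peak within 500 bp of its start either, against 7.78% and 11.9% of all genes. The nearest Pol II peaks lay outside the members. Upstream of Col11a2 they lay 7.90 to 11.4 kb from its start, at Slc39a7, a zinc transporter gene, and over the start of H2-Ke6. The nearest of them, in replicate 2, spanned the starts of Slc39a7 and of Rxrb, the gene next to Col11a2. Downstream of it, within 50 kb, some lay inside Brd2, which encodes a protein that reads acetylated histones, and the others were intergenic, 2 of them in replicate 1 and 3 in replicate 2. Near Col10a1, 1 peak of replicate 2 lay in the first exon of Nt5dc1, 28.5 kb from the Col10a1 start.

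**Figure D4:**
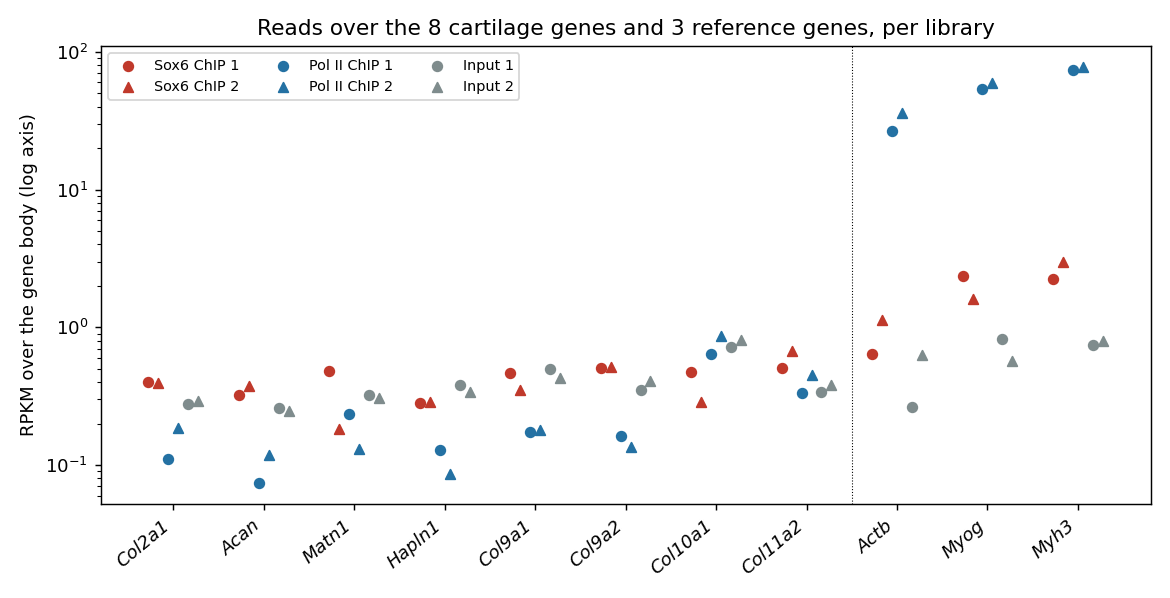
RPKM over the gene body (log axis) in each of the 6 libraries, for the 8 cartilage genes and, right of the dotted line, Actb, Myog and Myh3. Pol II values (blue) of the cartilage genes lie between 0.0738 and 0.866 RPKM, while the 3 reference genes lie between 26.4 and 77.8 RPKM.

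Pol II levels over the cartilage genes were low beside those of 3 reference genes. Actb, which encodes cytoplasmic actin, had 26.4 and 35.8 RPKM in the 2 Pol II libraries, Myog, the muscle regulator myogenin, 53.6 and 59.1, and Myh3, embryonic myosin heavy chain, 73.3 and 77.8. The highest member by RPKM was Col10a1 with 0.640 and 0.866, followed by Col11a2 with 0.334 and 0.452. All genes had medians of 0.427 and 0.411 RPKM, so Col10a1 was above the median in both libraries and Col11a2 in replicate 2 alone. The lowest values among the 10 housekeeping genes were 0.659 and 0.626 RPKM. Col10a1 was also the highest member in input, with 0.717 and 0.813 RPKM. Relative to input, Col11a2 and Col10a1 had the highest log2 ratios, 0.15 (SE 0.22) and 0.03 (SE 0.29). Their order was not settled, and it turned with repeated positions counted once (0.04 and 0.09). Col9a1 had 0.173 and 0.178, Col9a2 0.163 and 0.136, Matn1 0.234 and 0.131, Col2a1 0.112 and 0.186, Hapln1 0.128 and 0.0864 and Acan 0.0738 and 0.118. The last 6 lay between 0.0738 and 0.234 RPKM. Col9a1 was above Acan and Hapln1 in both libraries, while Matn1 and Col2a1 overlapped most of the others, so most neighbours in this order did not differ beyond their spread. Regions of 10 kb free of peaks had a median of 1.78 and 1.67 RPM in the 2 Pol II libraries. Per kb, that level lies within the range of the last 6 genes. In a bulk culture, no Pol II, Pol II in a small share of cells and little Pol II in every cell cannot be told apart there.

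Relative to input, 5 of the 8 gene bodies were lower in Pol II ChIP and none was higher, when libraries were scaled by total reads. Over all 20985 genes, 24.2% were called lower and 38.9% higher. The 5 were Hapln1 with a log2 ratio of -1.74 (SE 0.22, adjusted p = 9.26e-05), Acan with -1.38 (SE 0.25, adjusted p = 0.000938), Col9a1 with -1.37 (SE 0.14, adjusted p = 3.06e-05), Col9a2 with -1.21 (SE 0.33, adjusted p = 0.0105) and Col2a1 with -0.89 (SE 0.30, adjusted p = 0.0266). Matn1 had -0.68 (SE 0.43, adjusted p = 0.199), Col10a1 0.03 (SE 0.29) and Col11a2 0.15 (SE 0.22), none of them called. Leaving out input replicate 1 or 2 ended the calls of Col2a1 (-0.93 and -0.85) and Col9a2 (-1.32 and -1.10). In those fits the spread comes from the Pol II libraries alone.

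These lower values rest on the scaling. In 10 kb regions free of peaks, the Pol II libraries had 0.431 and 0.405 times the RPM of input, and the Sox6 libraries 0.914 and 0.875 times. When scaled to those regions, none of the 8 genes was lower, where 2.29% of all genes were, and 2 were higher, Col11a2 with 1.41 (SE 0.24, adjusted p = 0.000411) and Col10a1 with 1.29 (SE 0.30, adjusted p = 0.00392), where 62.0% of all genes were. The median of all genes moved from 0.17 to 1.43. On that scale Hapln1 had -0.48 (SE 0.20), Acan -0.12 (SE 0.26), Col9a1 -0.11 (SE 0.15), Col9a2 0.05 (SE 0.34), Col2a1 0.37 (SE 0.32) and Matn1 0.58 (SE 0.43), none of them past the threshold. The scaling moves all genes alike, so their order stays. By log2 ratio the members stood between percentile 5.61 (Hapln1) and 49.4 (Col11a2) of all genes tested.

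The 2 members with the highest Pol II RPKM overlap or adjoin other genes. Col10a1 lies wholly inside Nt5dc1, which had 0.718 and 0.712 RPKM in Pol II against 0.691 and 0.735 in input, and with bases near other genes left out nothing of Col10a1 remains to be measured. Reads of the overlapping genes cannot be told apart here. The start of Col11a2 lies 1044 bp behind the end of Rxrb, a retinoid receptor gene on the same strand with 1.88 and 2.09 RPKM in Pol II against 0.387 and 0.451 in input. Slc39a7 had 4.75 and 6.87 RPKM, H2-Ke6 3.53 and 6.08, and Brd2 10.1 and 9.78. When the first kb of Col11a2 was left out, its log2 ratio over the rest of the body was -0.11 on total reads. The part of these neighbors in the Col11a2 values was not tested.

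At the start sites Pol II counts were mostly 0 to 2. Col2a1, Acan and Matn1 had no Pol II read in either library, Hapln1 had 2 and 0, Col9a1 0 and 2, Col9a2 0 and 1 and Col10a1 1 and 1. A count of 0 allows 1.95 and 1.09 RPM in these libraries, more than the input level at any member, so counts of 0 cannot show a Pol II level below input. With an addition equal in RPM the test called Col2a1 (-1.0) and Matn1 (-1.03) lower, with 3158 of all 18743 genes, and both calls rest on 0 Pol II reads. Col11a2 had 3 and 5 reads, or 1.95 and 1.81 RPM, against 0.364 and 0.619 RPM in input. It was the only member called, with a log2 ratio of 2.10 (SE 0.62, adjusted p = 0.00183), among 7 members and 18743 genes tested, of which 47.1% were higher and 0.0694% lower. With regions without peaks as the scale it was again the only one, where 66.8% of all genes were higher. Without input replicate 1 it fell short of the threshold (1.74, adjusted p = 0.0735). It rests on 8 ChIP reads, and all genes tested had a median of 1.41, against 0.01 for the members. The 6 other members tested lay between percentile 10.2 (Matn1) and 29.1 (Col9a2) of all genes, and Col11a2 at 63.5. For comparison, Myog had 41 and 85 Pol II reads at its start and Actb 54 and 108.

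The other genes of the cartilage program were read from 2 further lists. Of 16 other matrix genes, 6 were lower and 1 higher in Pol II over the gene body (2 lower and 6 higher with regions without peaks as the scale). Of all genes, 24.2% were lower and 38.9% higher on total reads, and 2.29% and 62.0% on the other scale. The list had a median log2 ratio of -1.09 beside -1.05 for the 8 members and 0.17 for all genes. Epyc, a small proteoglycan of growth cartilage, had -2.48 (SE 0.25) and Col11a1, the partner chain of Col11a2, -2.19 (SE 0.13), and both stayed lower with regions without peaks as the scale. The higher one was Comp, cartilage oligomeric matrix protein, with 1.24 (SE 0.28, adjusted p = 0.00405). At the starts 1 of 15 was higher, Hapln3, with 2.55 (SE 0.90, adjusted p = 0.0114), where 47.1% of all genes were, and 7 of 15 with regions without peaks as the scale, where 66.8% were. None of the 16 overlapped a Pol II peak in either replicate, where 12.6% and 17.7% of all genes did.

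Of 14 regulators of chondrocytes, 6 were lower and 1 higher over the gene body, and 0 lower and 9 higher with regions without peaks as the scale, where 62.0% of all genes were higher. At the starts 3 of 10 were higher on total reads, beside 47.1% of all genes, and 5 of 10 on the other scale, beside 66.8%. Sox9, the partner of Sox5 and Sox6 in cartilage, was the higher one, with 1.17 (SE 0.37, adjusted p = 0.0209), and its start was higher as well, with 3.09 (SE 0.58, adjusted p = 4.5e-07). Sox5 had -1.40 (SE 0.09, adjusted p = 1.32e-06), and -0.14 with regions without peaks as the scale, where it was not called. Wwp2, the host gene of a cartilage microRNA, and Fgfr3, a receptor that slows growth of cartilage, were also higher at the start, with 2.5 (SE 0.48) and 1.90 (SE 0.66). Runx2, a regulator of hypertrophy and bone, was the 1 gene of the 14 that overlapped a Pol II peak in both replicates. Of all genes, 12.6% and 17.7% overlapped one. The Runx2 gene body was nonetheless lower on total reads (-0.39, SE 0.08, adjusted p = 0.00269) and higher with regions without peaks as the scale (0.87, SE 0.08).

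Genes of unrelated tissues were read beside them. Of 14 genes of liver, pancreas, blood, retina, brain and kidney, 5 were lower and 2 higher over the gene body in Pol II (0 lower and 5 higher with regions without peaks as the scale), with a median of -0.73. Of 15 fibroblast genes 9 were lower and 2 higher (0 lower and 6 higher on the other scale), with a median of -1.05. All 15 myotube genes and all 10 housekeeping genes were higher on both scales, with medians of 5.26 and 2.53. These counts stand beside the same shares of all genes, 24.2% lower and 38.9% higher on total reads and 2.29% and 62.0% on the other scale. Differences between the lists were not tested.

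Sox6 peaks were counted at the further cartilage genes in the same way. A common Sox6 peak lay within 50 kb of 2 of the 16 other matrix genes (12.5%), Prelp and Cytl1, and of 2 of the 14 regulators (14.3%), Sox6 itself and Runx3, beside 7.07% of all genes. It lay near 4 of 15 myotube genes, Myh3, Actc1, Tnnt2 and Tnnc1, near 1 fibroblast gene, 1 housekeeping gene and none of the 14 genes of other lineages. Over gene bodies, where 5.36% of all genes were higher and 1.63% lower, 1 gene of each of the 2 cartilage lists was higher and 1 lower, 6 of 15 myotube genes were higher and 0 lower, 2 of 15 fibroblast genes were higher and 1 lower, and 1 of 10 housekeeping genes was higher. With regions without peaks as the scale, 2 of 16 matrix genes, 3 of 14 regulators and 10 of 15 myotube genes were higher, beside 11.5% of all genes. With an addition equal in RPM no gene at all was called by limma after adjustment, with 3590 higher and 1612 lower at an unadjusted p under 0.05. Among the cartilage genes, Sox6 was higher at Col27a1 (0.55, SE 0.12, adjusted p = 0.0344) and Runx3 (0.75, SE 0.13, adjusted p = 0.0192), and lower at Col11a1 (-0.51, SE 0.13, adjusted p = 0.0467) and Trps1 (-0.44, SE 0.10, adjusted p = 0.0360). The lower pair lost its call with regions without peaks as the scale, and all 4 lost it with the addition equal in RPM.

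Across all 6 libraries the genes whose body RPKM values came closest to the median of the 8 members were Etnk2, A930011G23Rik and Hsd17b3, at distances of 0.231, 0.233 and 0.238 on the log2 scale over 6 libraries. Etnk2 had 0.194 and 0.151 RPKM in Pol II and 0.420 and 0.366 in Sox6, where the median member had 0.168 and 0.157 in Pol II and 0.468 and 0.365 in Sox6.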

How the data were processed

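Sox6 ChIP, Pol II ChIP and input DNA of primary mouse myotubes were sequenced in 2 libraries each and grouped by the labels. Per the study's methods the authors aligned reads with Bowtie 0.12.5 to NCBI Build 37, kept reads mapping to 1 place, and called peaks per library with SISSRs against input at a fragment length of 450 bp. The common Sox6 list holds peaks of both libraries within 50 bp. The deposited files hold positions of reads and peaks and no counts. The score column that the authors deposited with reads and Sox6 peaks is a constant, the deposited score of Pol II peaks has no name, and neither was used. Repeated positions made up 2.96% to 7.88% of reads and were kept.

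Genes were the 23030 of GENCODE M1 whose name matched a RefSeq symbol (20480) or synonym (2550), each by its longest model. All 21 chromosomes read fitted the genome sequence. Reads were counted by their 5' end within 500 bp of each start and over gene bodies. With 0.5 reads added, limma 3.58.1 with a trend (R 4.3.3) was fitted to log2 RPM for each ChIP against input, over genes with at least 10 reads in 4 libraries, two-sided, with Benjamini-Hochberg adjustment over all genes at 0.05. RPM are reads scaled to the total of each library, and RPKM are RPM per kb of gene. The script was tested on simulated data. Python 3.11.15 with scipy 1.17.1 gave exact intervals.

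The members and lists were chosen with earlier results of these data known, so their counts are descriptions. Named were all members, at most 4 called genes a list and comparison, Actb, Myh3 and Myog, genes with a peak within 50 kb of a member or overlapping one, and the 3 genes most like the members. H2-Oa was added for its position. Alternatives were another pseudocount, no filter, repeated positions counted once, scaling to 10 kb regions without peaks, the replicate number as a block, reads moved by 75 bp, other windows and each library left out. Same-numbered libraries did not deviate together (correlations of -0.06 to 0.05 over genes).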

Additional observations from a re-analysis of the deposited data

How the results depend on the processing

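Over the member ratios, 270 of 338 values under alternatives kept their direction and their side of the threshold and 36 changed sign. ChIP depth sets most limits: a start with no read still allows 3. Leaving out 1 ChIP library takes the spread from input alone, and leaving out 1 input library takes it from the ChIP libraries alone. In the ranges below, the libraries were left out in turn, and the cause of the shifts was not tested.

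Sox6 at starts: 417 genes were higher, and 0 with an equal pseudocount in RPM, 1485 without a filter (with 1 member, Acan, 3.71, adjusted p = 0.0117, against 1.76, adjusted p = 0.372, in windows of 1000 bp), 650 with regions without peaks as the scale, 241 in windows of 250 bp and 78 in windows of 1000 bp. With a library left out 1 to 6911 genes were higher, 0 to 672 lower, and 0 to 1 member higher and 0 to 1 lower. The sign changed for Col2a1 (0.45 with reads moved by 75 bp, 0.68 at 1000 bp, -1.02 to 0.00017 with a library left out), Col10a1 (0.12 at 250 bp, -2.54 to 0.81) and Hapln1 (0.014 at 1000 bp).

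Pol II at starts: 13 genes were lower, and 3158 with the equal pseudocount (with 2 members, Col2a1 and Matn1), 0 with regions without peaks as the scale, 0 at 250 bp and 299 at 1000 bp. With a library left out 6723 to 9971 genes were higher, 0 to 701 lower, and 0 to 2 members higher and 0 to 1 lower. Signs changed with the equal pseudocount (Hapln1 -0.22, Col9a1 -0.38, Col9a2 -0.46), repeated positions counted once (Col9a1 -0.086), regions without peaks (Col2a1 0.77, Matn1 0.70, Col10a1 0.84), 250 bp (Col9a1 -0.29, Col10a1 0.57), 1000 bp (Col9a2 -0.52) and a library left out (Hapln1 -1.58 to 1.59, Col9a1 -0.48 to 1.0, Col9a2 -0.090 to 0.65, Col10a1 -0.84 to 0.0059).

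Sox6 over bodies: 1124 genes were higher and 343 lower, and 0 and 0 with the equal pseudocount, 2307 and 530 without a filter, 2417 and 136 with regions without peaks as the scale. In the last 2 settings 1 member, Col11a2, was higher. With a library left out 173 to 7549 genes were higher, 33 to 2885 lower, 0 to 4 members higher and 0 to 3 lower. Matn1 changed sign with the equal pseudocount (-0.046), repeated positions counted once (-0.047), reads moved by 75 bp (-0.18), from 1 kb after the start (-0.069) and a library left out (-0.55 to 0.66), and Col9a1 with a library left out (-0.37 to 0.010).

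Pol II over bodies: 8156 genes were higher and 5086 lower, and 13011 and 481 with regions without peaks as the scale, with 2 members higher and 0 lower. With a library left out 6943 to 9161 genes were higher, 3020 to 6849 lower and 3 to 6 members lower, with 0 members higher. Signs changed for Col10a1 (-0.033 with the equal pseudocount, -0.16 to 0.22 with a library left out), Col11a2 (-0.11 from 1 kb after the start, -0.054 to 0.35) and, with regions without peaks, Col2a1 (0.37), Matn1 (0.58) and Col9a2 (0.052). Members with a Sox6 peak within 50 kb numbered 0, and 2 by the replicate 1 list.

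With the replicate number as a block, 2914 genes were higher and 1114 lower in Sox6 over bodies, with 1 member, Col11a2, higher (adjusted p = 0.0136), and the other members' calls were the same in all 4 comparisons. The labels do not say that a number marks a shared experiment, and the deviations of same-numbered libraries showed no correlation, which does not settle whether they pair.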
